A study of Mus musculus with 6 samples.

Results

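The genes described here are 10 ligands and receptors of immune checkpoints, taken by symbol from the 26214 features counted in each library: Cd274, Pdcd1lg2, Cd276, Vsir, Lgals9, Cd80, Cd86, Havcr2, Ctla4 and Tigit. All 10 were present in the files, and all 10 passed the filter on low counts that left 16281 genes for testing. RNA sequencing was done on ribosome-depleted total RNA of colon tumours from mice given azoxymethane, a carcinogen, with dextran sulfate sodium, which injures the colon lining. Trim21 is an E3 ubiquitin ligase and intracellular antibody receptor. Tumours of Trim21 -/- mice (3 libraries) were compared with tumours of Trim21 +/+ mice (3 libraries), and both genotypes received the same treatment. The labels give no strain, age, sex, treatment time or design of the Trim21 allele. They call the samples biological replicates without saying whether each came from its own mouse, so the spread behind each p-value is that among these libraries and may be technical.

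Libraries held between 17937821 and 29742757 reads assigned to genes, and each of the 3 wild-type libraries was deeper than each knockout library. Trim21 itself counted 244, 345 and 248 reads in the knockout libraries against 887, 601 and 527 in the wild type, so its transcript was still detected there (12.1 to 18.9 CPM against 19.5 to 29.8 CPM, edgeR adjusted p = 0.418). CPM is a read count scaled to a common library size after TMM, a scaling that evens out composition between libraries. The tissue label was checked against 10 epithelial markers, whose summed level was 7505 to 8825 CPM, with Epcam at 1297 to 1486 CPM in every library. In bulk tumour RNA, fewer cells of a type and less RNA per cell cannot be told apart, and this holds for every level below.

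Immune checkpoints are pairs of surface or secreted proteins that restrain T cells. Cd274 encodes PD-L1 and Pdcd1lg2 encodes PD-L2, the ligands of the receptor PD-1, and PD-L1 is strongly induced by interferon gamma. Cd80 and Cd86 on antigen-presenting cells bind both the activating receptor CD28 and the inhibitory receptor CTLA-4, which is abundant on regulatory T cells. Havcr2 (TIM-3) is carried by exhausted T cells and by myeloid cells, with galectin-9 (Lgals9) as a reported ligand. Tigit competes with CD226 for the poliovirus receptor. Vsir (VISTA) is mainly a myeloid protein, and Cd276 (B7-H3) is found on many tumour and stromal cells.

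The 250 bases before RefSeq's start are shown for Cd274 and Lgals9, ligands in which a site form of interferon regulatory factors was found, and for Havcr2, the reported receptor of galectin-9, which holds none. Sequences are RefSeq's for GRCm38.p6, the assembly that mm10 denotes, written 5′ to 3′ on the strand of the gene. The windows are chr19:29367188-29367437 (plus strand) for Cd274, chr11:78984925-78985174 (minus strand) for Lgals9 and chr11:46454681-46454930 (plus strand) for Havcr2. Capitals mark matches to GAAANNGAA on either strand, a form of the site bound by interferon regulatory factors, or to TGANTCA, the AP-1 site.
Cd274: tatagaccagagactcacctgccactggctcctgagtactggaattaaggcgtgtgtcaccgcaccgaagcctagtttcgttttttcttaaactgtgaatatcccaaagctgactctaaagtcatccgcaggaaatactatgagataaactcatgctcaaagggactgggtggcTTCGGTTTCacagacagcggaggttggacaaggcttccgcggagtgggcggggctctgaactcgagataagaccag
Lgals9: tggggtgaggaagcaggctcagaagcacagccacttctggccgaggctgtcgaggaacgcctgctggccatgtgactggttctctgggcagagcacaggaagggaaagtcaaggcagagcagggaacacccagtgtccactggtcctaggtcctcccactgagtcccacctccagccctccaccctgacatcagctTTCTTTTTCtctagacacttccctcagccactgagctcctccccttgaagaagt
Havcr2: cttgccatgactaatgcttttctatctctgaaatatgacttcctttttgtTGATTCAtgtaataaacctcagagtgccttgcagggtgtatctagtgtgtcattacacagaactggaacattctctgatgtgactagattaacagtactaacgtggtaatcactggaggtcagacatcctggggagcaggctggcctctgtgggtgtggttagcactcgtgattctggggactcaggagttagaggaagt

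Gene positions given below are those of GENCODE M21, whose starts equal RefSeq's for Pdcd1lg2 and Vsir but differ for other members. RefSeq's start lies 17 bases before the GENCODE gene for Cd274, 4 before it for Havcr2 and 38 before it for Tigit. It lies inside the GENCODE gene by 22 bases for Lgals9, 404 for Cd276, 3372 for Cd80 and 22025 for Ctla4. Counted from RefSeq's start, the interferon regulatory factor match lay 76 to 68 bases before the start of Cd274 and 54 to 46 bases before that of Lgals9, on the minus strand of the gene in both. Havcr2 held the AP-1 match only. Of the 9 members with an entry in the promoter table (all but Cd86), 3 held GAAANNGAA, the third being Ctla4 at 166 to 158 bases before its RefSeq start, while 7.13% of 32851 promoter windows of this length hold it. TGANTCA was found in Cd80 and Havcr2, against 6.75% of windows, and TTCNNNGAA, the gamma-activated site, in 0 of 9 members against 7.02% of windows. Each printed window holds a single match, so none overlaps another. A match describes letters in this window and does not show that a factor binds there.

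None of the 10 checkpoint genes was called different between Trim21 knockout and wild-type tumours. This does not show equal levels, as each group had only 3 libraries. With edgeR's quasi-likelihood test over all genes, 0 of 10 members passed an adjusted p of 0.05, where 0% of the 16281 genes tested did. At an unadjusted p under 0.05 there were also 0 of 10 members, where 10.7% of all genes stood (1750 genes, 1080 higher and 670 lower in the knockout). DESeq2 called 2.06% of genes (336 of 16308) and 0 of 10 members, with 1 member at an unadjusted p under 0.05, and limma-voom called 0 genes. The members' adjusted p in edgeR ran from 0.474 for Vsir to 0.992 for Havcr2. Of the 10 log2 fold changes, 5 were positive and 5 negative, with a median of 0.07 beside −0.01 for all genes tested.

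**Figure D1:**
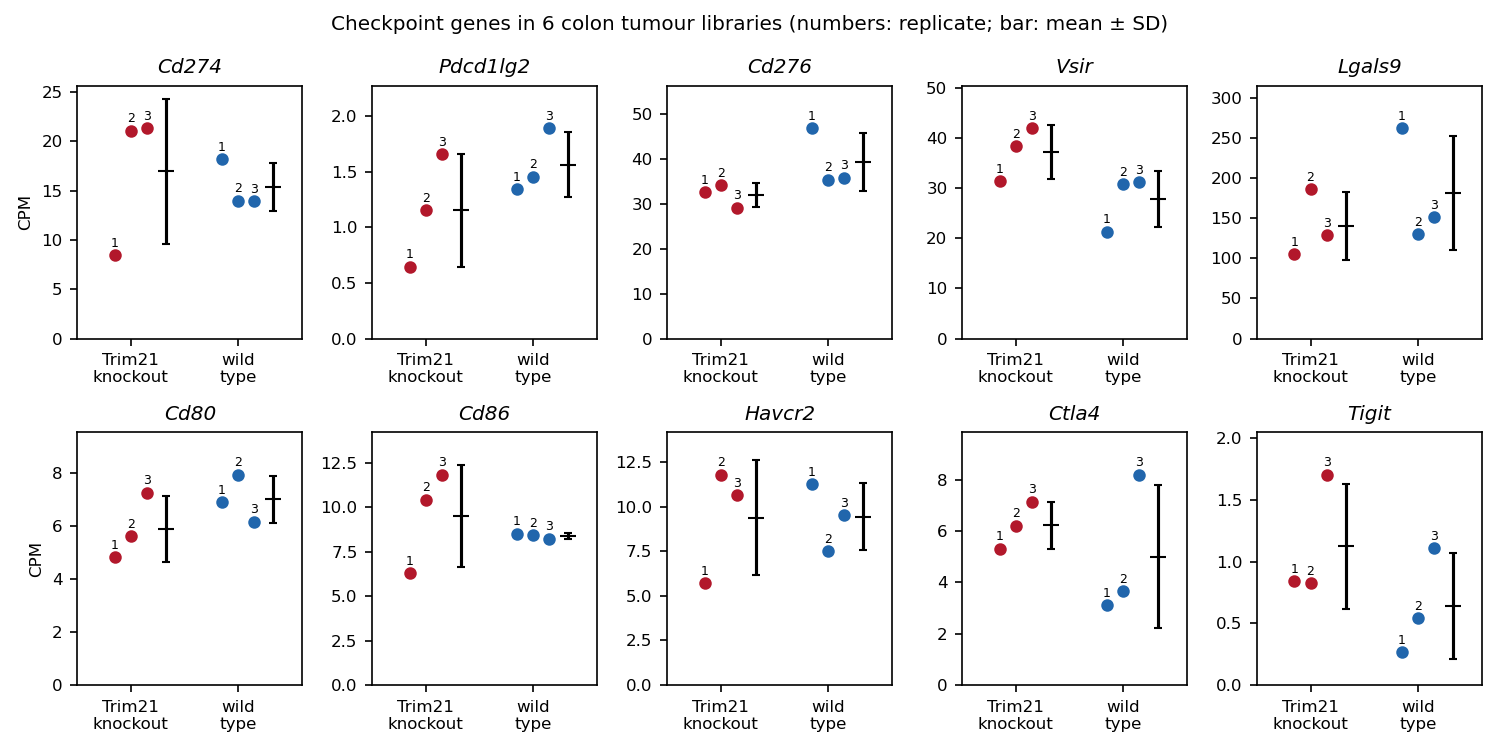
Level of each checkpoint gene in CPM (linear axis from 0) in 3 Trim21 knockout (red) and 3 wild-type (blue) tumour libraries, numbered by replicate, with mean ± SD beside each group. The groups separate for Cd276 and Vsir only, and knockout replicate 1 is the lowest library for 6 of the 10 genes.

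Scaled by exon length, which allows genes to be compared, Lgals9 was by far the most abundant member at 75.3 ± 26.6 RPKM (CPM per kilobase of exon, SD over 6 libraries). Cd276 followed at 9.75 ± 1.64, Vsir at 6.49 ± 1.42, Cd274 at 4.46 ± 1.38 and Havcr2 at 3.46 ± 0.871 RPKM. Cd86 (2.45 ± 0.526 RPKM) and Ctla4 (2.40 ± 0.847 RPKM) stood at nearly one level, and Cd80 had 1.74 ± 0.307 RPKM. Tigit (0.960 ± 0.540 RPKM) and Pdcd1lg2 (0.692 ± 0.220 RPKM) were lowest. Within single libraries, Lgals9 exceeded Cd276, Cd274 exceeded Havcr2, Havcr2 exceeded Cd86 and Cd80 exceeded Tigit in 6 of 6. The order of Cd276 and Vsir, and that of Vsir and Cd274, held in 5 of 6 libraries. The order of Cd86 and Ctla4, of Ctla4 and Cd80, and of Tigit and Pdcd1lg2 held in 4 of 6, so these neighbours were not set apart.

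**Figure D2:**
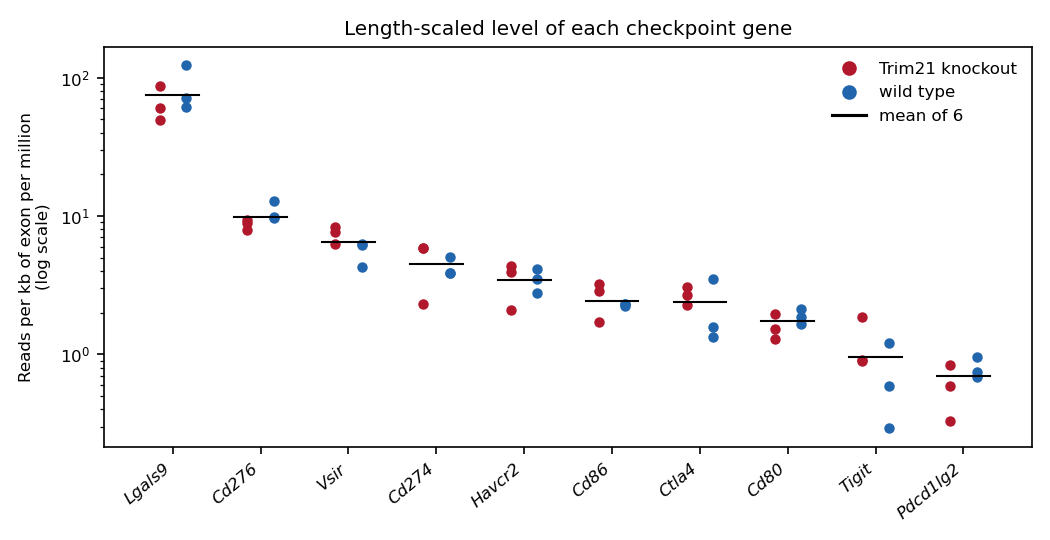
Length-scaled level (RPKM, log axis) of the checkpoint genes in 6 libraries, ordered by the mean of all 6 (black line), knockout in red and wild type in blue. Lgals9 lies near 75.3 RPKM and Cd276, the next gene, near 9.75 RPKM, and the span from there to Pdcd1lg2 is continuous.

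Among the PD-1 ligands, Cd274 (chromosome 19, 29367455 to 29388095, plus strand) was split within the knockout group. Its level was 8.43, 21.1 and 21.4 CPM in knockout replicates 1 to 3 and 18.2, 14.0 and 13.9 CPM in wild-type replicates 1 to 3. Knockout replicate 1 was the lowest of all 6 libraries, while the other two knockout libraries were the highest. The log2 fold change, knockout over wild type, was 0.14 (standard error 0.34, 95% interval −0.67 to 0.95, edgeR adjusted p = 0.897). Without knockout replicate 1 it was 0.47 and still did not pass (edgeR adjusted p = 0.439), while leaving out knockout replicate 2 or 3 gave −0.04 or −0.06. An antisense gene of GENCODE M21, AC119228.1, shares 511 exon bases with Cd274, and whether counting used strand is not given in the sources used here. AC119228.1 is not among the counted features.

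Pdcd1lg2 (chromosome 19, 29410919 to 29471161, plus strand), the neighbour of Cd274, was close to the limit of what this depth measures. It counted 13, 21 and 32 reads in the knockout libraries and 40, 43 and 51 in the deeper wild-type libraries. These correspond to 0.645, 1.15 and 1.65 CPM against 1.34, 1.46 and 1.89 CPM, so the groups overlapped through knockout replicate 3. For the 13 reads of knockout replicate 1 the exact 95% Poisson interval is 6.92 to 22.2 reads, which covers counting error only. The log2 fold change was −0.44 (standard error 0.43, 95% interval −1.46 to 0.58, edgeR adjusted p = 0.727), with −0.15 when knockout replicate 1 was left out and −0.80 when replicate 3 was. Reads of Cd274 outnumbered those of Pdcd1lg2 by 7.37 to 18.3 times per library on the CPM scale, and by 3.99 to 9.90 times per length.

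Cd276 and Vsir were the members whose groups did not overlap, in opposite directions. Cd276 (chromosome 9, 58524298 to 58555437, minus strand) measured 32.6, 34.2 and 29.2 CPM in the knockout and 46.9, 35.4 and 35.8 CPM in the wild type. Every knockout library was below every wild-type library, but the nearest values of the groups were 34.2 and 35.4 CPM. A gap of that kind, knockout below wild type, was seen for 8.47% of all genes, and the reverse for 9.43%. The log2 fold change of Cd276 was −0.30 (standard error 0.15, 95% interval −0.64 to 0.04, edgeR adjusted p = 0.503), and it was −0.15 without wild-type replicate 1. An antisense gene, Gm10657, shares 416 exon bases with Cd276 and is not among the counted features.

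Vsir (chromosome 10, 60346851 to 60372684, plus strand) measured 31.4, 38.3 and 42.0 CPM in the knockout and 21.3, 30.8 and 31.3 CPM in the wild type. Here every knockout library was above every wild-type library, by as little as 31.4 against 31.3 CPM. The log2 fold change was 0.42 (standard error 0.19, 95% interval −0.01 to 0.86), the smallest p among the members (unadjusted 0.0559, edgeR adjusted p = 0.474). It was 0.26 without wild-type replicate 1, the lowest library. Macrophage markers stood higher beside it: 13 of 15 macrophage and monocyte markers had a positive log2 fold change (median 0.37), 8 had an unadjusted p under 0.05, all higher, beside 10.7% of all genes, and 0 passed the adjusted test. Other tissue lists had positive medians too: smooth muscle 1.01 (10 of 10 positive, 7 with an unadjusted p under 0.05), fibroblast 0.37 (9 of 9) and endothelial 0.31 (5 of 6), with 0 past the adjusted test. Knockout replicate 1 was the highest library for 10 of 10 smooth muscle markers, and wild-type replicate 1 the lowest for 9 of 10. Of the other immune lists, medians were 0.42 for T cell (11 of 15 positive) and 0.40 for B cell markers (6 of 8). Cytotoxic markers had 0.55 (4 of 4) and dendritic cell markers 0.18 (6 of 9), with 0 past the adjusted test in these lists. The epithelial median was 0.07 (6 of 10 positive), and that of the neutrophil list, also myeloid, was −0.33 (5 of 7 negative). The 1 neutrophil marker with an unadjusted edgeR p under 0.05, Ly6g, was higher in the knockout (log2 fold change 0.66). Summed, the 15 macrophage markers measured 818.4 to 1072 CPM in the knockout and 710.2 to 813.2 CPM in the wild type. Per 100 CPM of Csf1r, Adgre1 and Cd68 together, 3 genes of macrophages, Vsir stood at 38.9, 32.8 and 37.6 CPM in the knockout and 26.9, 39.1 and 37.3 CPM in the wild type, where the groups overlapped. The part of cell makeup in the Vsir values was not tested.

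Lgals9 (chromosome 11, 78962974 to 78984946, minus strand), the galectin of this set, measured 105.4, 186.8 and 129.1 CPM in the knockout and 262.7, 130.5 and 151.1 CPM in the wild type. Wild-type replicate 1 was far above the rest, knockout replicate 2 came next, and the groups overlapped. The log2 fold change was −0.37 (standard error 0.30, 95% interval −1.09 to 0.35, edgeR adjusted p = 0.674), and without wild-type replicate 1 it was −0.0046.

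The B7 ligands of CD28 and CTLA-4 pointed opposite ways without passing. Cd80 (chromosome 16, 38455561 to 38496335, plus strand) measured 4.81, 5.60 and 7.24 CPM in the knockout and 6.88, 7.92 and 6.15 CPM in the wild type. Cd86 (chromosome 16, 36603869 to 36666081, minus strand) measured 6.30, 10.4 and 11.8 CPM in the knockout and 8.52, 8.43 and 8.23 CPM in the wild type. Both overlapped between the groups, and the wild-type values of Cd86 lay close together while its knockout values spread on both sides of them. Log2 fold changes were −0.25 for Cd80 (standard error 0.23, edgeR adjusted p = 0.709) and 0.18 for Cd86 (standard error 0.25, edgeR adjusted p = 0.804), with 95% intervals of −0.79 to 0.29 and −0.40 to 0.77. Leaving out knockout replicate 1 gave −0.11 and 0.41, and leaving out replicate 3 gave −0.43 and −0.0071. The Cd86 to Cd80 ratio of CPM, a pair chosen after its values were seen, was 1.31, 1.86 and 1.64 in the knockout and 1.24, 1.06 and 1.34 in the wild type, with 1 knockout value inside the wild-type range.

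**Figure D3:**
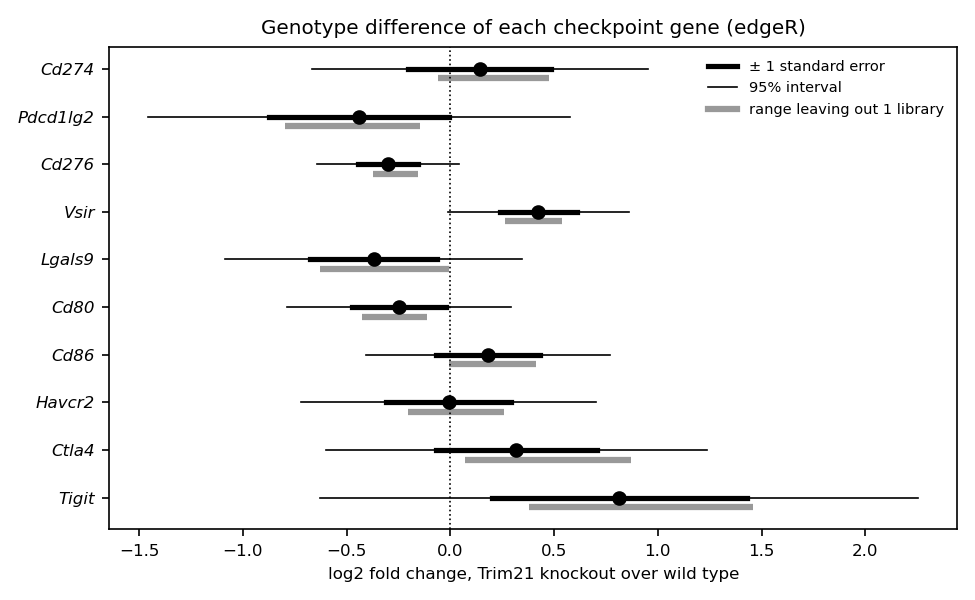
Log2 fold change of each checkpoint gene, Trim21 knockout over wild type, from edgeR (point), with ± 1 standard error (thick line), 95% interval (thin line) and the range when 1 library is left out (grey). Every 95% interval includes 0, that of Vsir from −0.01 to 0.86 most narrowly.

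The 3 receptors had mean levels between 0.960 RPKM (Tigit) and 3.46 RPKM (Havcr2). Havcr2 (chromosome 11, 46454935 to 46481255, plus strand) measured 5.70, 11.8 and 10.7 CPM in the knockout and 11.3, 7.52 and 9.53 CPM in the wild type. Group means were nearly identical, 9.39 ± 3.24 and 9.44 ± 1.88 CPM (SD, n = 3 each), and the highest and the lowest library were both knockout. Its log2 fold change was −0.0087 (standard error 0.30, 95% interval −0.72 to 0.70, edgeR adjusted p = 0.992), with 0.26 when knockout replicate 1 was left out and −0.21 when replicate 2 was. The interval leaves room for a difference in either direction.

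Ctla4 (chromosome 1, 60887000 to 60915832, plus strand) measured 5.31, 6.20 and 7.14 CPM in the knockout and 3.12, 3.66 and 8.19 CPM in the wild type. The knockout values lay between the lower pair of wild-type values and wild-type replicate 3, the highest library. Its log2 fold change was 0.32 (standard error 0.39, 95% interval −0.60 to 1.23, edgeR adjusted p = 0.779), 0.87 without wild-type replicate 3 (edgeR adjusted p = 0.429) and 0.07 without wild-type replicate 1. Tigit (chromosome 16, 43648867 to 43664146, minus strand) counted 17, 15 and 33 reads in the knockout and 8, 16 and 30 in the wild type, or 0.843, 0.824 and 1.71 CPM against 0.268, 0.542 and 1.11 CPM. For the 8 reads of wild-type replicate 1 the exact 95% Poisson interval is 3.45 to 15.8 reads. Replicate 3 was the higher one in both groups, and the groups overlapped. Tigit had the largest log2 fold change of the members and the widest interval: 0.81 (standard error 0.61, 95% interval −0.63 to 2.26, edgeR adjusted p = 0.645), ranging from 0.38 without knockout replicate 3 to 1.46 without wild-type replicate 3.

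Transcripts of Cd3d, Cd3e and Cd3g were scarce in all 6 libraries, while the whole T cell list summed to 60.4 to 87.4 CPM. That list also holds Cd247, the CD3 zeta chain gene, at 19.8 to 24.3 CPM. The CD3 chains Cd3d, Cd3e and Cd3g, which define T cells, summed to 2.83, 4.23 and 6.0 CPM in the knockout and 2.92, 1.56 and 5.34 CPM in the wild type. Relative to that sum, Ctla4 stood at 188, 147 and 119 CPM per 100 CPM in the knockout and at 107, 235 and 153 in the wild type. For Tigit the same ratio was 29.8, 19.5 and 28.4 in the knockout and 9.20, 34.8 and 20.8 in the wild type. Both ratios overlapped between the genotypes, and in the wild type they spanned more than the whole knockout range. Ctla4 also exceeded these 3 chains per length, at 2.40 RPKM against 0.455 RPKM for Cd3d, 0.301 RPKM for Cd3e and 0.537 RPKM for Cd3g. Cd247 stood above Ctla4, at 4.02 RPKM. Foxp3, the regulatory T cell factor, stood at 3.06 RPKM, with 11.5 to 14.3 CPM in the knockout and 14.7 to 15.3 CPM in the wild type (log2 fold change −0.22, edgeR adjusted p = 0.600). Of 6 tested regulatory T cell markers, Foxp3 included, 4 had a positive and 2 a negative log2 fold change, with a median of 0.09.

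Relative to the macrophage marker sum of Csf1r, Adgre1 and Cd68, which was 80.7, 117 and 112 CPM in the knockout and 79.2, 78.8 and 83.7 CPM in the wild type, 2 of the 6 members examined separated the groups. Cd80 stood at 5.96, 4.79 and 6.48 CPM per 100 CPM of these markers in the knockout and 8.68, 10.1 and 7.35 in the wild type. Pdcd1lg2 stood at 0.799, 0.987 and 1.48 against 1.69, 1.85 and 2.26. All knockout values were lower for both genes, a pattern that 20.8% of all genes showed on this scale, whose denominator was higher in 2 of 3 knockout libraries. For Cd274, Cd86, Havcr2 and Vsir the groups overlapped. These ratios are a description without a test, and an exact two-sided permutation test of 3 against 3 libraries cannot give a p below 0.1.

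**Figure D4:**
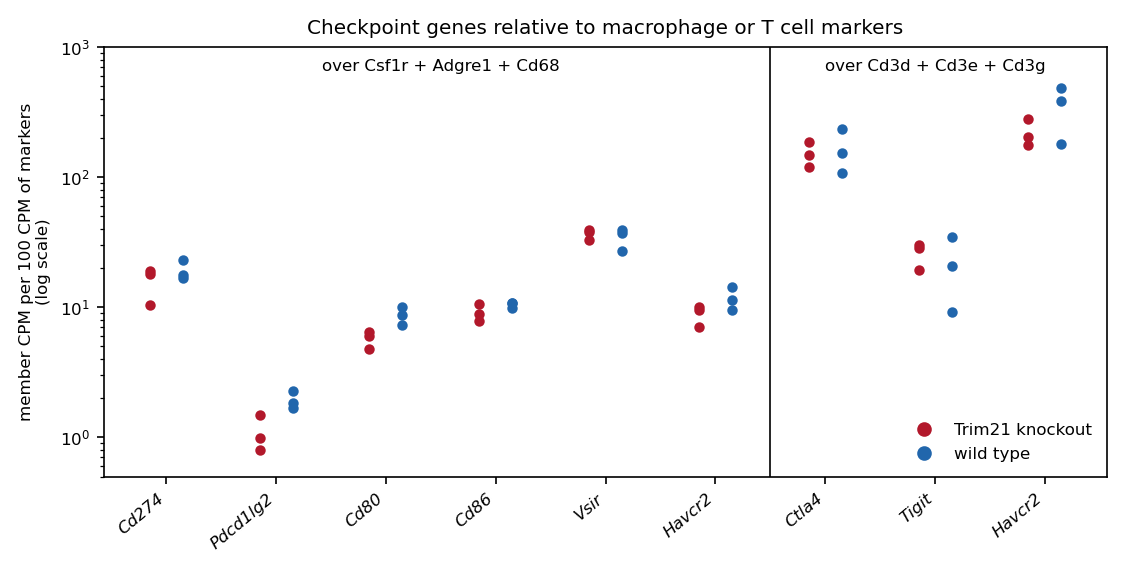
Level of checkpoint genes in CPM per 100 CPM of summed macrophage markers (left) or Cd3d, Cd3e and Cd3g (right), log axis, 1 point per library, knockout in red and wild type in blue. On the left the groups separate for Pdcd1lg2 and Cd80, and on the right, where the denominator is 1.56 to 6.0 CPM, all overlap.

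Levels varied between libraries of one genotype by amounts that differed from gene to gene. The highest library exceeded the lowest by 1.17 times within the knockout and 1.33 times within the wild type for Cd276, by 2.53 and 1.3 times for Cd274, and by 2.07 and 4.14 times for Tigit. Knockout replicate 1 was the lowest library for 6 of 10 members (Cd274, Pdcd1lg2, Lgals9, Cd80, Cd86 and Havcr2), where it was lowest for 19.7% of all genes. The same library was lowest for 18 of the 22 tested genes of the interferon gamma list. Wild-type replicate 1 was the lowest for 3 of 10 members (Vsir, Ctla4 and Tigit), near its share of 24.6% over all genes. It was also lowest for 8 of 8 B cell, 9 of 10 smooth muscle, 8 of 15 macrophage, 5 of 10 epithelial and 3 of 4 tested cytotoxic markers. The part of cell makeup in these differences was not tested.

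**Figure D5:**
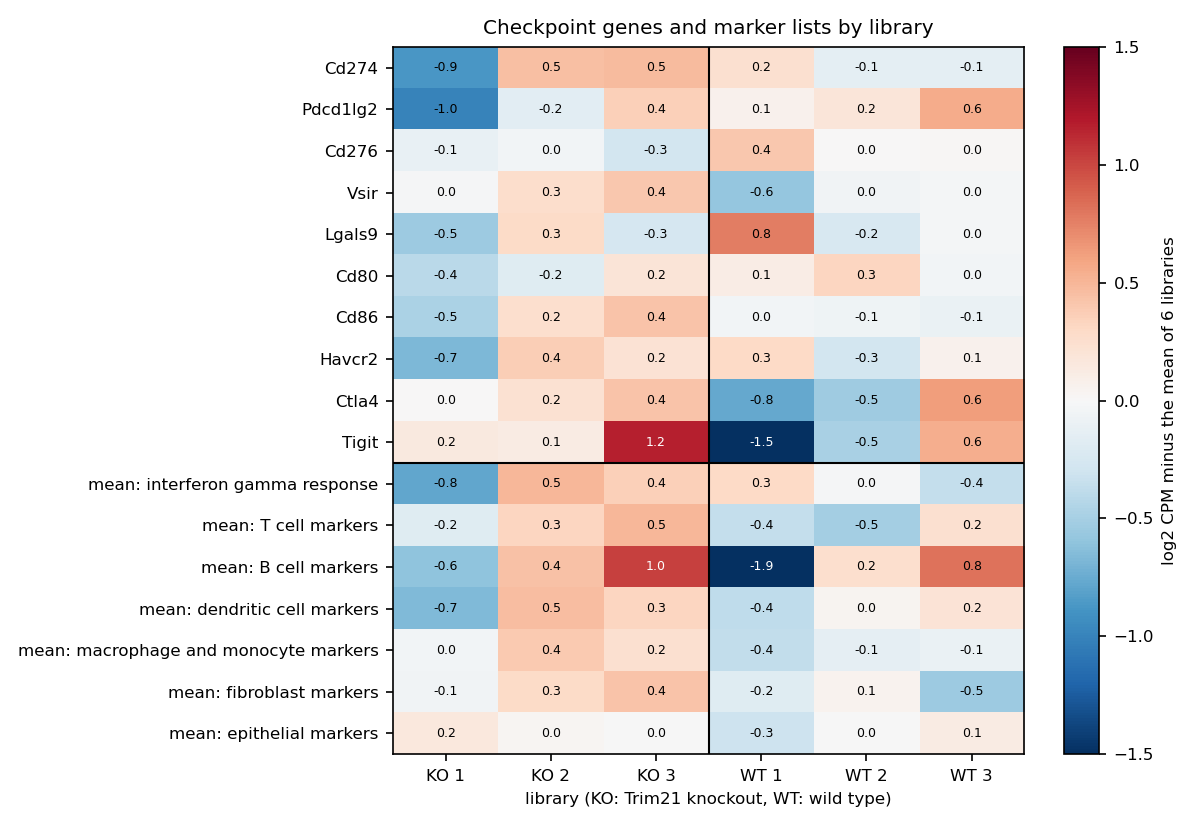
Log2 CPM of each checkpoint gene and of the mean of several gene lists, minus the mean of the 6 libraries (red above, blue below). Cd274, Havcr2 and the interferon gamma list are low in knockout replicate 1, and Ctla4, Tigit and the B cell markers are low in wild-type replicate 1.

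The interferon gamma list held 0 genes past the edgeR test. Of 22 tested genes, 13 had a positive and 9 a negative log2 fold change, with a median of 0.09, and 0 had an unadjusted p under 0.05. Ifng itself was counted in 3 of 6 libraries, at 0.07 to 0.47 CPM, and was too low to test. Log2 fold changes were 0.03 for the transcription factor gene Irf1, −0.88 for the pathway inhibitor gene Socs1 and 1.22 for the chemokine gene Cxcl9, with edgeR adjusted p of 0.938, 0.516 and 0.633. The receptor chains Ifngr1 and Ifngr2 had 0.14 and −0.13, the immunoproteasome gene Psmb8 0.38 and the guanylate-binding protein gene Gbp4 0.38. Cxcl9 ranged from 0.889 CPM in knockout replicate 1 to 26.7 CPM in knockout replicate 3. Its log2 fold change was 0.31 without knockout replicate 3, 1.78 without knockout replicate 1 and 0.19 in limma-voom. The median of the list was 0.33 without knockout replicate 1, −0.06 when knockout replicate 2 was left out and −0.03 when wild-type replicate 3 was.

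Other checkpoint genes from a wider list (46 in the files, 41 tested) also gave 0 adjusted calls in edgeR, with 26 positive and 15 negative log2 fold changes and a median of 0.16. An unadjusted p under 0.05 was reached by 5 of 41, 3 higher and 2 lower, near the 10.7% of all genes. Tnfsf9, the 4-1BB ligand, measured 4.81, 4.39 and 3.98 CPM in the knockout and 9.76, 7.11 and 10.6 CPM in the wild type. All knockout values were lower, and the log2 fold change was −1.06 (standard error 0.22, edgeR adjusted p = 0.323, DESeq2 adjusted p = 0.0087). Its receptor gene Tnfrsf9 also lay lower in each knockout library, at 9.37 to 12.2 CPM against 12.8 to 17.1 CPM (log2 fold change −0.35, edgeR adjusted p = 0.530). Cd28, which competes with Ctla4 for Cd80 and Cd86, measured 3.17, 5.0 and 9.82 CPM in the knockout and 1.38, 3.39 and 2.52 CPM in the wild type (log2 fold change 1.30, edgeR adjusted p = 0.435). The ICOS ligand gene Icosl had 0.43 and Cd48, a ligand of CD244, had 0.57, each with every knockout library higher. The B7 family gene Vtcn1 had −0.53 and Igsf11, a reported VISTA ligand, −0.28, and none of these passed the test. Of the 41 tested genes, 2 had every knockout library higher, beside 9.43% of all genes. Another 2 had every knockout library lower, beside 8.47% of all genes.

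The direct partners of the members showed no called difference. Pdcd1, the PD-1 receptor, had a mean of 0.791 RPKM, beside 0.692 RPKM for its ligand Pdcd1lg2, and measured 0.298, 2.36 and 1.29 CPM in the knockout and 1.04, 2.13 and 2.04 CPM in the wild type, and knockout replicate 1 was again lowest. Pvr and Nectin2, the Tigit ligands, were at 50.9 to 65.8 and 66.7 to 91.5 CPM over the 6 libraries, with log2 fold changes of −0.11 and −0.18 (edgeR adjusted p = 0.766 and 0.579). Among defining genes of the cells that carry checkpoints, log2 fold changes were 0.82 for Cd3e, 0.72 for Cd4, 1.21 for Cd8a, 0.23 for Csf1r, 0.55 for Adgre1, 0.04 for Itgax and −0.05 for Epcam, and 0 of these passed. Of 15 tested genes of the T cell list, 11 had a positive log2 fold change and 4 a negative one, with a median of 0.42. The negative values were −0.39 for Cd3d, −0.20 for Lck, −0.08 for Zap70 and −0.05 for Cd247. Only Ubash3a, at 4 to 25 reads per library, had an unadjusted edgeR p under 0.05 (log2 fold change 2.09, edgeR adjusted p = 0.345). Single libraries moved the T cell values: leaving out replicate 3 of the knockout gave 0.37 for Cd8a and 0.51 for Cd3e, and leaving out that of the wild type gave 1.78 and 1.53.

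Genes whose profile over the 6 libraries was most like that of Cd274 were Rasgrp1, Il7r, Csnk1g3, Phactr2 and Ppp3cc, with Pearson r of log2 CPM from 0.984 to 0.996 and Spearman rho from 0.943 to 1. Leaving out knockout replicates 1 and 3, the libraries farthest from the median, r stayed between 0.950 and 0.999. Among those most like Havcr2 were Usp25, Mzf1, Slc25a14 and Klhl6, with r from 0.970 to 0.990 and rho from 0.829 to 1. Without knockout replicate 1 and wild-type replicate 2, r was 0.98 for Usp25 but 0.613 for Klhl6. They were picked as the highest of 14069 genes compared, of which 160 had an r above 0.9 with Cd274 and 98 with Havcr2, so no test is attached to them.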

How the data were processed

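For each of the 6 libraries the authors deposited a list of gene symbols with raw read counts. Per the submitters' processing notes, the mm10 build, TopHat2, edgeR and limma were used, without versions or roles; which tool counted reads, with which annotation and strand setting, is not given in the sources used here. Counts were analysed in R 4.3.3 with edgeR 4.0.16 (filterByExpr, TMM, quasi-likelihood test, group as the only term, two-sided, Benjamini-Hochberg over 16281 genes, threshold 0.05). CPM and RPKM were computed here from the deposited counts, RPKM with union exon lengths of GENCODE M21 (GRCm38). Intervals of fold changes use the test's total degrees of freedom, residual plus prior. DESeq2 1.42.0, limma-voom (limma 3.58.1), 3 scalings, 2 filters, a replicate block and leaving out each library were tried. The fitting code was tested on simulated data.

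The members and gene lists were chosen with earlier results of these data known. Besides the 10 members, the text names binding partners, cell markers and up to 6 genes per list with the smallest unadjusted p; Tnfrsf9 and the ratio of Cd86 to Cd80 were chosen after their values were seen. Similar genes have a mean of at least 1 CPM and exclude predicted genes. One gene that these rules name is not reported here.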

Additional observations from a re-analysis of the deposited data

How the results depend on the processing

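Over all genes edgeR called 0, with 1750 at an unadjusted p under 0.05, and DESeq2 called 336 and limma-voom 0. Leaving out single libraries gave 0 to 1, the 1 being Eif2s3y, a Y-linked gene, higher in the knockout without wild-type replicate 3. The labels give no sex, and whether sex differed between the groups was not tested. Members called were 0 under DESeq2, limma-voom, each scaling, each filter, each left-out library and the replicate block. An unadjusted edgeR p under 0.05 was reached by 3 of 10 members without knockout replicate 1, beside 1829 of 16809 genes. It was reached by 2 without wild-type replicate 3, beside 1792 of 16373 genes, and by 1 with the replicate block. Without 1 library, log2 fold changes changed sign for Cd274 (−0.061 to 0.47), Cd86 (−0.0071 to 0.41), Havcr2 (−0.21 to 0.26), Pdcd1 (−1.12 to 0.077), Irf1 (−0.064 to 0.14) and Itgax (−0.25 to 0.21); the cause was not tested. The median of the members ran from −0.12 without knockout replicate 2 to 0.34 without knockout replicate 1. With the replicate block Vsir had a log2 fold change of 0.43 (edgeR adjusted p = 0.59) and 1293 genes an unadjusted p under 0.05. Same-numbered libraries did not deviate together (r of −0.147, −0.175 and −0.0734). Deviations from means of 3 libraries cannot decide whether the numbers pair samples, and the labels do not say. Of the genes named, Tnfsf9 passed in DESeq2. Tigit was not tested when CPM of at least 1 was asked for in 3 libraries. Low counts limit Tigit and Pdcd1lg2, with 8 to 51 reads per library.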
